A study of Mus musculus with 2 samples.

Results

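The genes described are 40 members of the cell death machinery of mouse cells: the BCL2 family, the caspases and their mitochondrial activators, the inhibitor of apoptosis proteins, the death receptor adaptors and the necroptosis genes. They were chosen by symbol from a table of 30491 genes, and all 40 were found there, with 210 of its 88702 transcripts. The cells were muscle-resident fibro/adipogenic progenitors (FAPs), stromal cells that lie between muscle fibres. Primary cells from wild-type (WT) mice were sorted and cultured in DMEM with serum and antibiotics. One culture group received 1 µM recombinant mouse Musclin, a peptide hormone of muscle and bone, for 24 h, and the other an equal amount of vehicle for the same time. Each group is 1 library, whether from 1 culture or a pool is unstated, and for want of replicates no test was run. The vehicle values come from a column headed BSA, matched to the vehicle sample because none other remained. Labels do not name BSA as the vehicle, and each direction given depends on this match.

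The proteins of these genes decide between survival and several forms of death. In the mitochondrial pathway of apoptosis, BH3-only proteins sense damage and free BAX and BAK from their anti-apoptotic relatives, after which cytochrome c leaves the mitochondrion, joins APAF1 and activates caspases. Death receptors reach the same caspases through FADD and caspase-8, and where caspase-8 is held back, RIPK1, RIPK3 and MLKL carry out necroptosis, a lytic death. FAPs are known for clearance by apoptosis after muscle injury, and the comparison asks whether the RNA of this machinery differed early after Musclin.

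The largest differences lay in which transcript of a gene was listed, and the sequences that set these transcripts apart are shown first, 5′ to 3′ on the sense strand, from the GENCODE M21 transcripts (GRCm38). Bak1-201 holds an additional exon of 20 bases (chr17:27021663-27021682, minus strand), in capitals. Bak1-202, which codes for the full protein, and Bak1-204 differ at an exon start by the 5 bases in capitals (chr17:27022873-27022877), which Bak1-204 lacks. Neither 20 nor 5 is a multiple of 3, and GENCODE classes both Bak1-201 and Bak1-204 as targets of nonsense-mediated decay (NMD), the pathway that removes mRNA with an early stop codon.
Bak1-201: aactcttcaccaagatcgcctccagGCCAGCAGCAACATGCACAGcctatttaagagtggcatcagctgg
Bak1-202: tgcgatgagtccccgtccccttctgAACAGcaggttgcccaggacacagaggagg
Bak1-204: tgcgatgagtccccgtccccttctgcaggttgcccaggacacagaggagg

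Diablo-203 is spliced at the junction shown, whereas Diablo-206 keeps the intron of 121 bases there (chr5:123517834-123517954, minus strand) and Diablo-207 holds it within a longer last exon. Reading into that intron, the annotated coding region ends after 51 bases at the stop codon in capitals (chr5:123517901-123517903), which leaves 157 codons in place of 237.
Diablo-203: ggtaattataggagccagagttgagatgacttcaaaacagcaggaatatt
Diablo-206: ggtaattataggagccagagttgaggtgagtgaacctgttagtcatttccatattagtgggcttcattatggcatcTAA

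The remaining stretches keep the reading frame. Mlkl-201 holds 24 coding bases (chr8:111314941-111314964, minus strand, capitals) that Mlkl-202 lacks. In Birc6, Birc6-202 holds 18 bases (chr17:74613377-74613394, plus strand) that Birc6-204 lacks, and Birc6-213 holds 27 bases (chr17:74615331-74615357) that Birc6-202 lacks.
Mlkl-201: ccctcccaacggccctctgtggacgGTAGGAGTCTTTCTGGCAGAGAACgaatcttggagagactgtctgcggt
Mlkl-202: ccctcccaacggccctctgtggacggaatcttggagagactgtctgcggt
Birc6-202: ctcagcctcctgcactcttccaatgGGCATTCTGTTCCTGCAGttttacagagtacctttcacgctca
Birc6-213: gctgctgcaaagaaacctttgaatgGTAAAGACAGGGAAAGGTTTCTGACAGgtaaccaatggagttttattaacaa

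Gene-level differences of the members are given beside the same counts over all genes. Levels are FPKM, fragment counts divided by transcript length and library size, summed over the transcripts of a gene, and 37 of the 40 genes reached 1 FPKM in a library. None of the 37 was 2-fold or more higher or lower with Musclin on the log2 scale of FPKM plus a pseudocount of 1, where 1.71% of all 12884 genes at that floor were higher and 1.52% lower. At 1.5-fold, 1 gene was higher, Casp4, and none was lower, against 5.65% and 5.20% of all genes. Among 37 genes, those shares would give few at either limit, so these counts do not set the members apart. At 1.25-fold, a limit chosen after the values were seen, 8 were higher and 3 lower, against 14.6% and 15.7% of all genes. The log2 ratio was above 0 in 23 of the 37 and in 46.9% of all genes at the floor, and its median was 0.07 over the 37 and -0.02 over all genes.

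The steps of the FPKM values gave a depth of 6.69 Gb of aligned bases for the Musclin library and 6.76 Gb for the other. Divided by the 298 bases of a read pair, these give 22456797 and 22677193 fragment equivalents, which are not counted reads. For each gene the ratio of aligned bases is given with a 95% exact Clopper-Pearson interval, which covers counting error only. That interval excluded 1 for 25 of the 37 genes, 17 above and 8 below, and for 57.7% of all genes at the floor. The FAP markers Pdgfra, Ly6a, Cd34, Dcn, Col1a1, Pdgfrb and Osr1 were all above 1 FPKM, summing to 1123 FPKM with Musclin and 1049 with vehicle. They did not move together, with Dcn at 181 and 64.8 FPKM and Cd34 at 29.7 and 14.5 FPKM, but Osr1 at 15.1 and 34.8 FPKM and Pdgfrb at 181 and 271 FPKM. The 3 mural and smooth muscle markers summed to 18.1 and 23.6 FPKM, with Cspg4 at 14.0 and 21.5 FPKM and Myh11 at 3.75 and 1.87 FPKM. The 6 leukocyte markers found summed to 5.48 and 4.49 FPKM. Cd68 (3.03 and 2.86 FPKM) and Csf1r (1.61 and 0.532 FPKM) reached 1 FPKM, while Ptprc was at 0.383 and 0.644 FPKM. The 4 endothelial markers summed to 3.02 and 5.36 FPKM. Tek (1.58 and 3.45 FPKM) and Cdh5 (0.891 and 1.15 FPKM) reached 1 FPKM in a library, while Pecam1 was at 0.185 and 0.103 FPKM. The part of any of these markers in the results was not tested. In such bulk RNA, fewer cells of a type and less RNA per cell cannot be told apart. Of the 40 genes, 12 share exonic bases with a gene on the other strand, and the use of strand in counting is not stated.

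**Figure D1:**
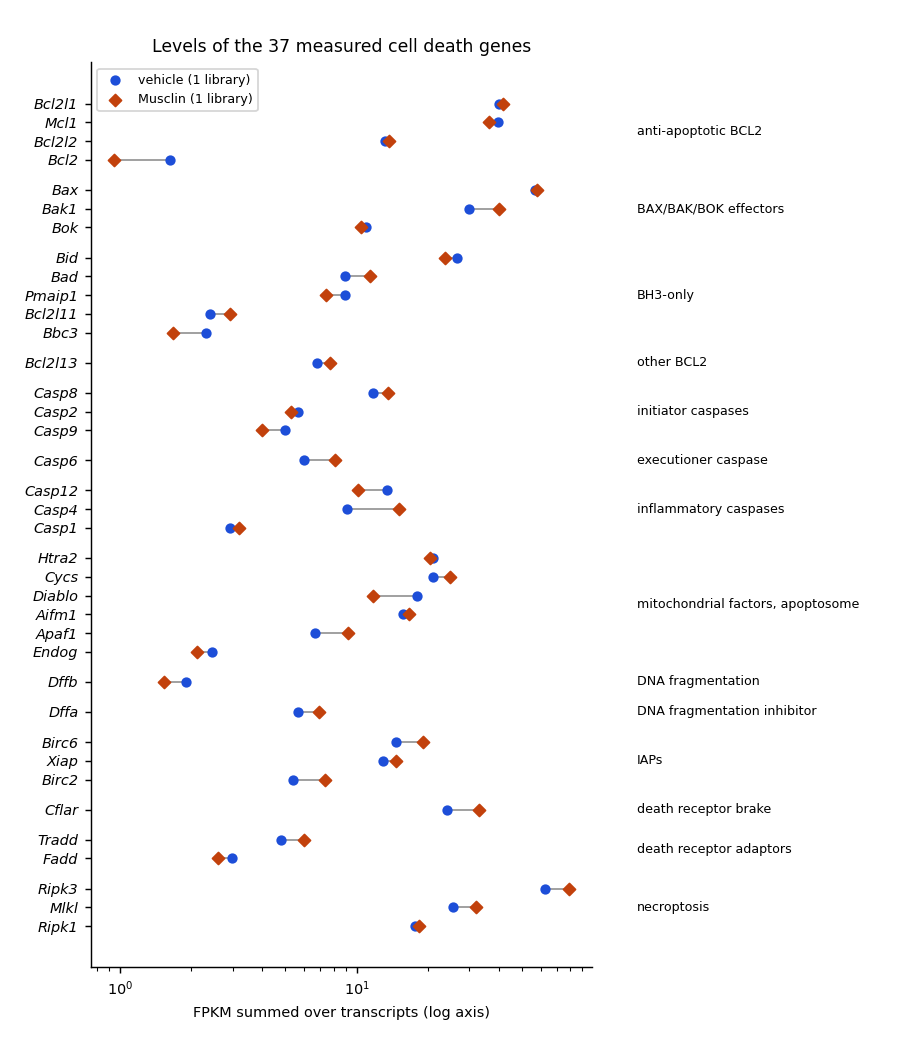
Level of each of the 37 measured genes in the vehicle library (circles) and the Musclin library (diamonds), in FPKM summed over transcripts on a log axis, grouped by role. Most pairs of points lie close together, and the widest gaps are those of Bcl2, Casp4 and Diablo.

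Pro- and anti-apoptotic members were close to each other. The 21 measured pro-apoptotic genes had a median log2 ratio of -0.04, with 10 above 0 and 11 below, and the 8 anti-apoptotic genes a median of 0.12, with 6 above 0 and 2 below. The difference of both medians was -0.16. It turned to 0.0058 when the BCL2 family alone was compared. It turned to 0.032 when each gene was represented by its most abundant annotated coding region, whatever the class of the transcript. That setting took Bak1 as the NMD transcript Bak1-204 (log2 ratio 2.25) and Bax as Bax-203 (0.22), whose coding region is annotated as incomplete. Bak1-202 and Bax-201, with complete coding regions, were at -0.26 and -0.18. The 0.032 is therefore no comparison of complete coding regions throughout. Summed over all 24 genes of the pro-apoptotic list, expression was 282 FPKM with Musclin and 270 with vehicle, and over the anti-apoptotic list 167 and 151 FPKM.

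RNA for the anti-apoptotic BCL2 proteins, which hold BAX and BAK in check, was carried almost entirely by Bcl2l1, Mcl1 and Bcl2l2. Bcl2l1, which encodes BCL-XL, was at 41.8 FPKM with Musclin and 39.8 with vehicle, an aligned-base ratio of 1.05 (0.992 to 1.12). Mcl1, whose protein turns over quickly, was at 36.4 and 39.6 FPKM, with a ratio of 0.919 (0.873 to 0.968). Both libraries thus held these genes at nearly the same level. Bcl2l2, the BCL-W gene, was at 13.7 and 13.1 FPKM, a ratio of 1.03 (0.946 to 1.13). It shares 594 exonic bases with Gm20521 on its own strand (5.98 and 8.17 FPKM), so reads there could belong to either gene. Bcl2 itself (ENSMUSG00000057329, chr1:106538178-106714274) was expressed at a far lower level, 0.940 FPKM with Musclin and 1.63 with vehicle. Its log2 ratio was -0.44, and its aligned bases were 1.71-fold lower (1.39 to 2.10), on 152 against 262 fragment equivalents. It was the member with the lowest aligned-base ratio among the 37, while the 4 genes summed to 92.9 FPKM with Musclin and 94.2 with vehicle.

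The pore-forming effectors divided. Bax was the most abundant of them, at 57.9 FPKM with Musclin and 57.0 with vehicle, with a ratio of 1.04 (0.957 to 1.12). Bok, a relative that acts largely at the endoplasmic reticulum, was at 10.4 and 11.0 FPKM, and its interval (0.823 to 1.12) also included 1. Bak1 (ENSMUSG00000057789, chr17:27019810-27029009) was at 39.9 FPKM with Musclin and 29.9 with vehicle, which is 0.41 in log2, with 1.27 times the aligned bases (1.19 to 1.37). The ratio of Bax to Bcl2l1, both in FPKM, was 1.39 with Musclin and 1.43 with vehicle. The ratio of Bax to Bcl2 was 61.6 and 35.0, which follows the low level of Bcl2, on 152 against 262 fragment equivalents.

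The higher Bak1 total lay in transcripts classed as NMD targets. These summed to 30.8 FPKM with Musclin and 21.5 with vehicle, 77.3% and 72.1% of the gene, whereas the protein-coding transcripts summed to 9.07 and 8.35 FPKM. Bak1-202, with the full coding region of 627 bases, was at 5.88 FPKM with Musclin and 7.23 with vehicle. Within the NMD class the 2 transcripts differed in opposite directions. Bak1-201, which holds the exon of 20 bases, was at 0.0126 FPKM with Musclin and 15.8 with vehicle, and Bak1-204, which lacks the 5 bases shown above, at 30.8 and 5.71 FPKM. The authors' deposited table marks Bak1-204 as significant (5.40-fold higher, q-value 4.42e-27) but gives Bak1-201 a p-value of 1. Transcripts that differ by so few bases share nearly all their reads, so the split between them rests on the authors' estimation and was not tested against reads.

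The BH3-only genes, which sense damage and start the pathway, ranged from under the floor to the level of Bid. Bid, whose product links death receptors to mitochondria, was highest at 23.6 FPKM with Musclin and 26.5 with vehicle, a ratio of 0.895 (0.826 to 0.970). Pmaip1, which encodes NOXA, was at 7.40 and 8.94 FPKM, a ratio of 0.829 (0.730 to 0.940). Bbc3, which encodes PUMA, a p53 target, was at 1.68 and 2.31 FPKM on 62 against 91 fragment equivalents. Those 3 genes were lower with Musclin, and the other 2 measured ones were higher. Bad, whose product is silenced by survival kinases, was at 11.4 and 8.97 FPKM, a ratio of 1.26 (1.07 to 1.49). Bad shares 524 exonic bases with Gpr137 on the opposite strand, which was at 9.44 and 7.32 FPKM. Reads there could belong to either gene. Bcl2l11, which encodes BIM, was at 2.93 and 2.39 FPKM, a ratio of 1.29 (1.08 to 1.54). The remaining BH3-only genes were under the floor, with Bmf at 0.243 and 0.348 FPKM, Hrk listed at 0 with Musclin and 0.0181 with vehicle, and Bik listed at 0 in both. Bcl2l13, an outer mitochondrial membrane protein of the family that also acts in mitophagy, was at 7.73 and 6.78 FPKM. It shares 628 exonic bases with Bid on the opposite strand, so reads there could belong to either gene.

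**Figure D2:**
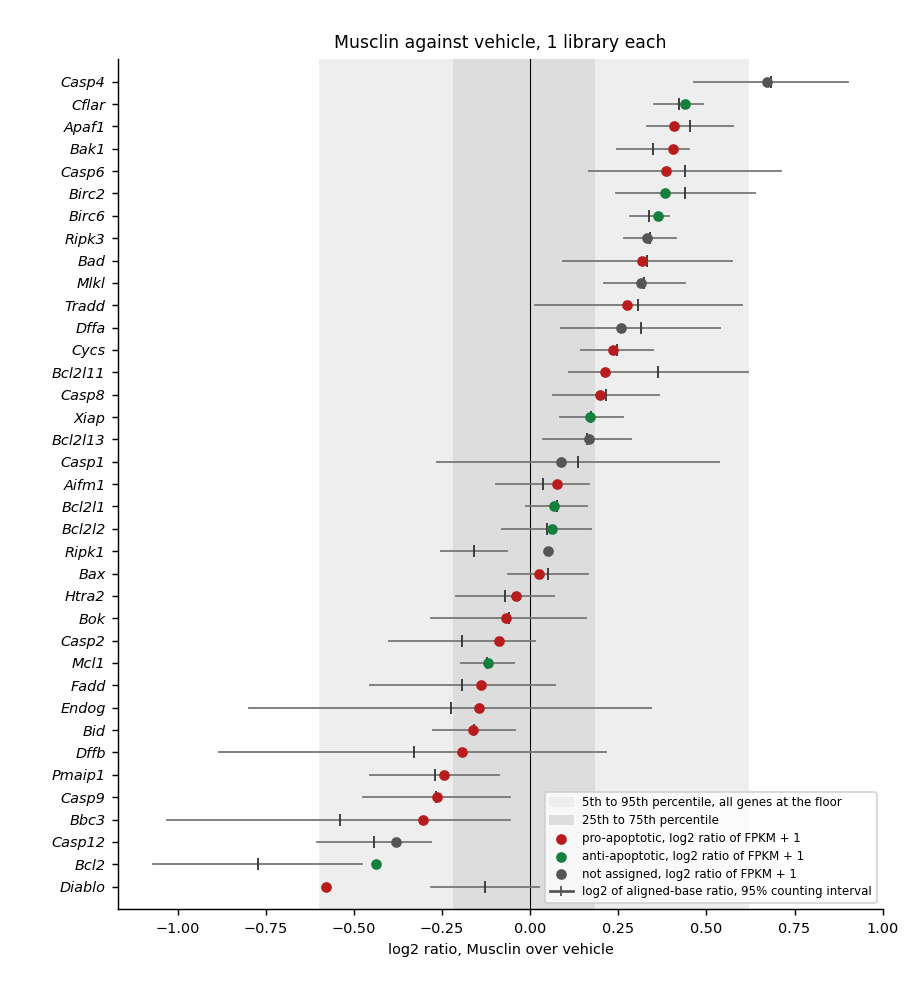
Log2 ratio of Musclin over vehicle for the 37 measured genes (points, FPKM plus 1, coloured by textbook role) with the log2 aligned-base ratio and its 95% counting interval (ticks and lines), over the central ranges of all 12884 genes at the floor (grey). Casp4 is the 1 gene to the right of the 5th to 95th percentile range, and for Bcl2, Diablo and Ripk1 the point lies outside the interval of the aligned bases.

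Among the caspases, the proteases that carry out death, the inflammatory ones spanned almost the whole range of the 37 genes. Casp4, which encodes the sensor of cytosolic bacterial lipopolysaccharide known in mouse as caspase-11, was at 15.2 FPKM with Musclin and 9.13 with vehicle. This was the highest log2 ratio of the 37, 0.67, above 95.8% of all genes at the floor. Its aligned-base ratio was 1.61 (1.38 to 1.87), on 453 against 285 fragment equivalents. Casp4 (ENSMUSG00000033538) lies on the plus strand at chr9:5308828-5336783, between Casp1 (chr9:5298508-5307290) and Casp12 (chr9:5345430-5373032). Casp12, whose product resides at the endoplasmic reticulum in mouse, was at 10.1 FPKM with Musclin and 13.4 with vehicle, and its aligned bases were 1.36-fold lower (1.21 to 1.52). Much of that difference lay in an NMD transcript, given below. Casp1, which matures interleukin-1β, was at 3.17 and 2.93 FPKM, and its interval (0.833 to 1.45) included 1. The neighbours thus lay on both sides of no difference.

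The Casp4 difference was shared by its transcripts. The main coding transcript Casp4-201, with 75.2% and 79.9% of the gene's FPKM, was at 11.4 FPKM with Musclin and 7.29 with vehicle. The transcripts classed as retained introns were higher as well, with Casp4-207 at 1.22 and 0.727 FPKM and Casp4-202 at 1.21 and 0.605 FPKM. No Casp4 transcript is marked significant in the authors' deposited table. The 229 bases before the first annotated Casp4 exon (chr9:5308599-5308827, plus strand, RefSeq, GRCm38.p6) are shown because Casp4 was the gene farthest from 0, with matches to the NF-κB consensus in capitals.
Casp4 promoter: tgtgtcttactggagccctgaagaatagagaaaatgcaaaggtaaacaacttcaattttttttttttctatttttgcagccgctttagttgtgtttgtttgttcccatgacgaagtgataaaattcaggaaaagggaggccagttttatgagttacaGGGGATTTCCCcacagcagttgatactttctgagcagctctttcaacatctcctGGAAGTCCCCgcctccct

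The first capital run holds 2 overlapping matches. Both strands were searched in windows of 300 bases, of which 250 lie before the start, and 36 of the 40 genes had 49 such windows. The NF-κB consensus was in 8 of the 49 (16.3%), in Aifm1, Bbc3, Bcl2l1, Bmf, Casp4, Hrk and Xiap, and in 8.46% of all 32851 windows. Casp4 accounts for 2 of the 8, with overlapping windows that hold the same matches. The interferon-stimulated response element core was in 2 of the 49, in Cflar and Ripk1, and in 3.44% of all windows. The gamma-activated site TTCNNNGAA was in 2, in Casp12 and Ripk1, and in 8.30% of all. Neither the AP-1 motif TGANTCA nor the C/EBP-ATF element TGATGCAA was in a member's window, against 7.81% and 0.895% of all. A match is a run of letters and not a measured site.

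The caspases of apoptosis, initiators and an executioner, were all less than 1.5-fold apart. Casp8, the death receptor caspase, was at 13.6 FPKM with Musclin and 11.7 with vehicle, a ratio of 1.16 (1.05 to 1.29). Casp9, which the apoptosome activates, was at 3.98 and 4.98 FPKM, a ratio of 0.832 (0.719 to 0.961), and Casp2 was at 5.29 and 5.68 FPKM, with an interval (0.758 to 1.01) that included 1. Initiators thus differed in direction. Casp6 (ENSMUSG00000027997, chr3:129901425-129914103), an executioner, was at 8.10 and 5.97 FPKM, 0.38 in log2, and its bases gave a ratio of 1.35 (1.12 to 1.64).

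Of the proteins that act once mitochondria open, Apaf1 was the highest relative to vehicle, and Diablo was the lowest by summed FPKM but not by aligned bases. Apaf1, the scaffold of the apoptosome (ENSMUSG00000019979, chr10:90989311-91082770), was at 9.19 FPKM with Musclin and 6.68 with vehicle, or 0.41 in log2, and its base ratio was 1.37 (1.26 to 1.49). Its main transcripts code for the same 3747 bases and differ in their first 2 exons. Apaf1-201 was at 4.70 and 2.35 FPKM, while Apaf1-202 was at 3.97 and 3.997 FPKM. Cycs, cytochrome c, was at 24.9 and 21.0 FPKM, a ratio of 1.19 (1.10 to 1.27), and since this gene has many processed pseudogenes its reads may be divided among copies. The ratios of Htra2 (20.4 and 21.0 FPKM), Aifm1 (16.7 and 15.8 FPKM) and Endog (2.11 and 2.44 FPKM), which encode a protease, an oxidoreductase and a nuclease of mitochondria, had intervals that included 1. In Htra2 the transcripts classed as retained introns made up 64.0% of the FPKM with Musclin and 63.1% with vehicle. On the other strand, Htra2 shares 535 exonic bases with Loxl3 (112 and 104 FPKM) and 753 with Aup1 (33.4 and 32.2 FPKM). Endog shares 379 with Spout1 (9.65 and 12.4 FPKM). Reads there could belong to either gene.

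Diablo encodes SMAC, which leaves mitochondria and displaces XIAP from caspases (ENSMUSG00000029433, chr5:123509765-123524176). Its summed FPKM was 11.7 with Musclin and 17.9 with vehicle, a log2 ratio of -0.58, just short of 1.5-fold. The aligned bases did not show this difference, with a ratio of 0.915 (0.822 to 1.02) on 664 against 733 fragment equivalents. FPKM divides by transcript length, and the transcripts that were higher and lower differ in length. Diablo-205, of 3386 bases, was at 5.99 FPKM with Musclin and 0.943 with vehicle. Diablo-206 (1663 bases) was at 2.41 and 7.76 FPKM, Diablo-203 (1576 bases) at 1.51 and 6.28 FPKM, and Diablo-207 (2588 bases) at 0.914 and 2.26 FPKM. The authors' deposited table marks all 4, Diablo-205 as 6.36-fold higher with a q-value of 7.27e-29, Diablo-206 as 3.22-fold lower, Diablo-203 as 4.17-fold lower and Diablo-207 as 2.48-fold lower.

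The Diablo transcripts were also summed by coding region, a grouping chosen after the values were seen. Diablo-203 and Diablo-205 share the full coding region of 711 bases and together were at 7.50 FPKM with Musclin and 7.23 with vehicle. Diablo-206 and Diablo-207, which read into the intron shown above and code for 471 bases, together were at 3.32 and 10.03 FPKM, 3.02-fold lower. The full coding region was level in sum because its 2 transcripts differed in opposite directions, and with Musclin most of it was Diablo-205. Over the transcripts classed as protein-coding, Diablo was at 2.71 FPKM with Musclin and 8.71 with vehicle, a log2 ratio of -1.39. GENCODE classes Diablo-205 as an NMD target although it codes for the full protein, and it has a further exon past the last one of Diablo-203. Diablo shares 1326 exonic bases with B3gnt4 on the other strand, which was at 0.0420 and 0.0496 FPKM, and 1193 with Gm49027 on its own strand, at 0.359 and 0.738 FPKM.

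**Figure D3:**
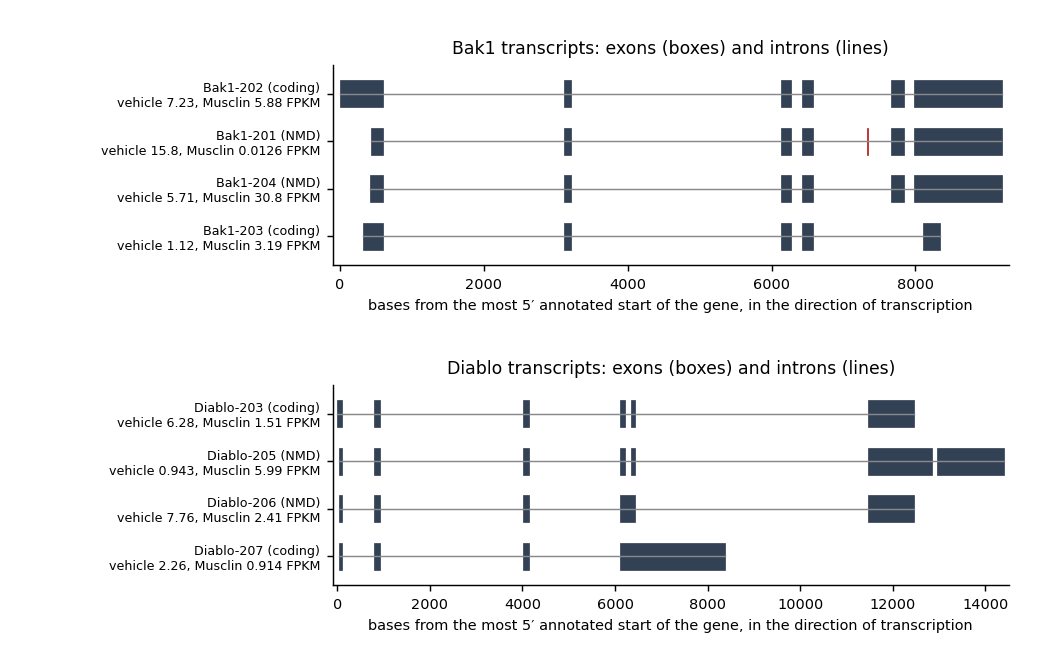
Exons (boxes) and introns (lines) of the main Bak1 and Diablo transcripts, to scale in bases from the most 5′ annotated start of each gene, with the level of each transcript in both libraries in FPKM. The exon of 20 bases in red is present in Bak1-201 alone, and the widened box in the middle of Diablo-206 is the kept intron with its neighbouring exons. In Diablo-207 the last box holds the same bases and runs on into the next intron.

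The inhibitor of apoptosis genes, whose products bind caspases or tag death proteins with ubiquitin, were higher with Musclin in all 3 cases, with intervals above 1. The interval excluded 1 for 57.7% of all genes at the floor. Birc2, which encodes the ubiquitin ligase cIAP1 (ENSMUSG00000057367, chr9:7818227-7837064), was at 7.33 FPKM with Musclin and 5.39 with vehicle, or 0.38 in log2, and its base ratio was 1.36 (1.19 to 1.56). Birc6, a giant ubiquitin-conjugating member, was at 19.1 and 14.6 FPKM, a ratio of 1.26 (1.22 to 1.31). Xiap, the direct caspase inhibitor, was at 14.6 and 12.9 FPKM, a ratio of 1.13 (1.06 to 1.20). All 3 lay under 1.5-fold, and the ratio of Diablo to Xiap in FPKM was 0.799 with Musclin and 1.39 with vehicle, which carries the Diablo transcript lengths described above.

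Xiap transcripts differed more than their shared coding region. Xiap-204 was at 4.18 FPKM with Musclin and 8.68 with vehicle, Xiap-203 at 8.20 and 3.15 FPKM, and Xiap-201 at 1.20 and 0.397 FPKM. All 3 are marked in the authors' deposited table, the first as 2.08-fold lower and the others as 2.61-fold and 3.04-fold higher. They share the coding region of 1488 bases, whose 4 transcripts summed to 13.6 and 12.2 FPKM, and differ in their first exons. As for Bak1, the split between them rests on the authors' estimation and was not tested against reads. Xiap-203 starts at chrX:42067836 and Xiap-204 at chrX:42068398, on the plus strand. The bases before each start, up to the nearest annotated Xiap exon, are shown because the transcripts at the 2 starts went in opposite directions (RefSeq, GRCm38.p6, chrX:42067586-42067835 and chrX:42068148-42068356), and neither stretch holds a match to the motifs searched.
Xiap-203 start: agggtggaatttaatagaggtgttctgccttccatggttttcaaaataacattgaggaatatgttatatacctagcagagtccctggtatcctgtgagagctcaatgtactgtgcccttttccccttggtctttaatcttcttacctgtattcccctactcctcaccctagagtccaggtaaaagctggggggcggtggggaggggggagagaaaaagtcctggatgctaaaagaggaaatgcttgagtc
Xiap-204 start: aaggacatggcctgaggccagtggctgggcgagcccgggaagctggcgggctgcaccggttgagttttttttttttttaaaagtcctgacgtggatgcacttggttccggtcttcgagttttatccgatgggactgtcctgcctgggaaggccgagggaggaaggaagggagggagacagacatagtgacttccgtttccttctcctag

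Birc6 transcripts also differed. Birc6-202, the transcript with the longest last exon among those at 1 FPKM, was at 1.43 FPKM with Musclin and 4.92 with vehicle, and Birc6-220 and Birc6-213 were at 6.11 against 2.48 and 3.62 against 1.32 FPKM. The authors' deposited table marks them as 3.45-fold lower, 2.46-fold higher and 2.74-fold higher, along with the NMD transcript Birc6-221 at 0.807 and 0.268 FPKM. Birc6-204, which lacks the 18 bases shown above, was at 3.80 and 3.47 FPKM. The other 4 coding transcripts at 1 FPKM differ from Birc6-202 by 12 to 60 bases in coding length, out of 14619. These are net differences, since Birc6-220 starts later in exon 1 but has a longer exon 13. Most reads of these transcripts are still shared.

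**Figure D4:**
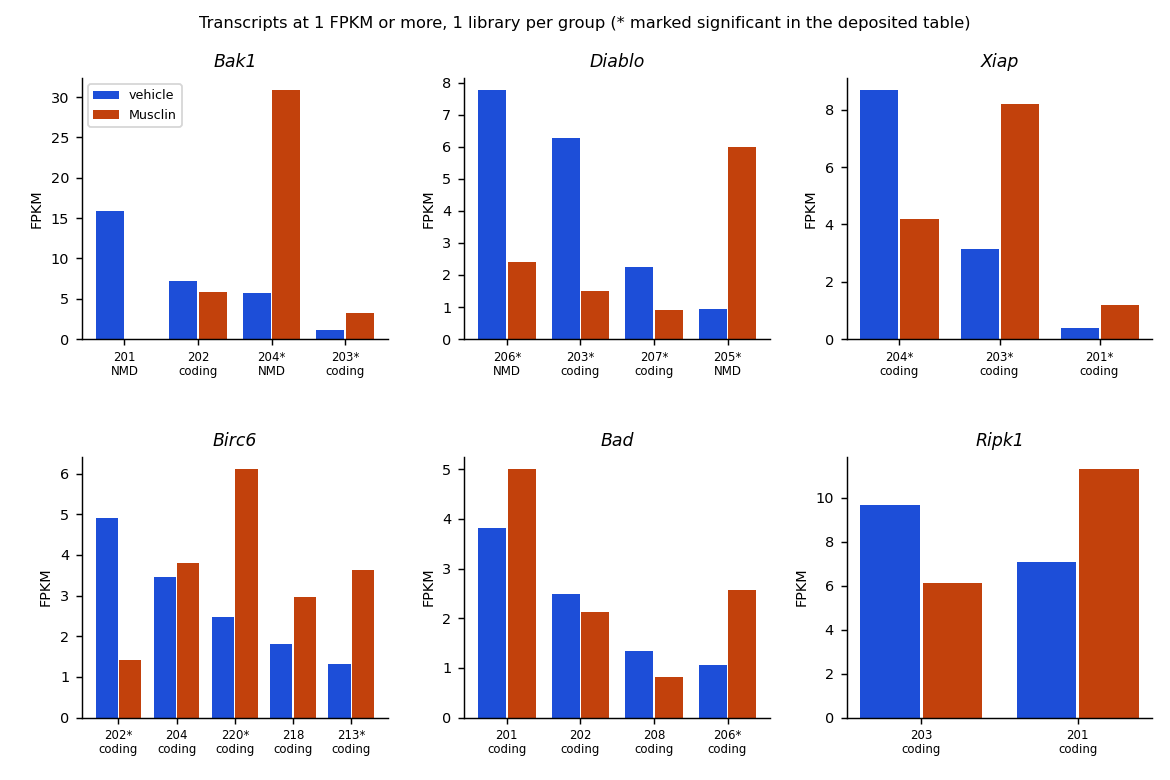
FPKM of each transcript at 1 FPKM or more in a library, for Bak1, Diablo, Xiap, Birc6, Bad and Ripk1, with vehicle and Musclin bars side by side, 1 library each. In every panel some transcripts are higher and others lower with Musclin, and stars show those marked significant in the authors' deposited table.

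Exchange of transcripts of this size was found in 4 of the 27 genes that could be compared. The measure is the share of a gene's FPKM that lies on different transcripts in the 2 libraries, for genes with 2 or more transcripts and at least 5 FPKM in both. It was 62.4% in Bak1, 50.8% in Diablo, 39.0% in Xiap and 31.2% in Birc6, all past 25%, as were 11.1% of 7388 genes in the table. The median over the 27 genes was 6.97%, against 4.52% over all genes. At the other end, Casp8, Cycs, Pmaip1 and Bid were each at 1.17% or less. Of the 77 member transcripts at 1 FPKM or more, 13 (16.9%) carry the significance mark of the authors' deposited table, against 12.0% of all 23162 such transcripts. Of the 13, 8 were higher and 5 lower, where 5.97% and 6.06% of all were marked higher and lower. The 14 marked transcripts, Birc6-221 included, belong to Bak1, Diablo, Xiap, Birc6 and Bad. In Bad the marked one is Bad-206 (2.56 and 1.06 FPKM), which codes for the same 486 bases as Bad-202 (2.14 and 2.49 FPKM).

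Among the members of death receptor signalling, Cflar had the highest log2 ratio. Cflar, which encodes FLIP, the decoy that restrains caspase-8 (ENSMUSG00000026031, chr1:58711508-58758884), was at 33.0 FPKM with Musclin and 24.1 with vehicle. Its log2 ratio of 0.44 was the second highest of the 37, and its aligned-base ratio was 1.34 (1.28 to 1.41) on 3970 against 2993 fragment equivalents. Cflar-coding transcripts of 1443 bases summed to 28.8 and 21.1 FPKM, and this is the long form of the protein. The ratio of Cflar to Casp8 in FPKM was 2.43 with Musclin and 2.05 with vehicle. The adaptor Tradd was at 6.01 and 4.79 FPKM, a ratio of 1.24 (1.01 to 1.52), and Fadd, which recruits caspase-8, was at 2.60 and 2.97 FPKM, with an interval (0.730 to 1.05) that included 1.

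The necroptosis genes were abundant in both libraries. Ripk3, the kinase that phosphorylates MLKL, was the most abundant of the 40 genes, at 78.8 FPKM with Musclin and 62.5 with vehicle, above 92.6% of all genes at the floor in the vehicle library. Its aligned-base ratio was 1.27 (1.20 to 1.33). Mlkl, the executioner that permeabilises the plasma membrane, was at 32.1 and 25.6 FPKM, a ratio of 1.25 (1.16 to 1.36). Both were higher with Musclin to about the same extent, and the ratio of Ripk3 to Mlkl was 2.46 with Musclin and 2.44 with vehicle.

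Transcripts of these necroptosis genes were unequal too. Mlkl-202, which lacks the 24 bases shown above, was at 18.1 FPKM with Musclin and 11.7 with vehicle, while Mlkl-201 was at 13.2 in both. In Ripk3 the transcripts coding for 1266 bases summed to 61.6 and 45.5 FPKM, and Ripk3-201, which codes for 1458 bases and differs at the start of exon 2, was at 16.5 and 16.2 FPKM. Ripk1, the kinase and scaffold upstream of both caspase-8 and RIPK3, was at 18.3 FPKM with Musclin and 17.6 with vehicle, but its aligned bases went the other way, with a ratio of 0.896 (0.840 to 0.956). Its main transcripts code for the same 1968 bases. Ripk1-203, with a last exon of 4652 bases, was at 6.12 and 9.66 FPKM, and Ripk1-201, whose last exon has 1182 bases, at 11.3 and 7.10 FPKM. Direction in Ripk1 therefore depends on whether transcripts or bases are summed. Ripk1 also shares 241 exonic bases with Serpinb6a on the other strand, which was at 455 and 520 FPKM.

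Bcl2l1 showed the same kind of exchange at its first exons. Bcl2l1-202 was at 26.9 FPKM with Musclin and 19.8 with vehicle and Bcl2l1-201 at 8.86 and 14.6 FPKM, and both code for the same 699 bases, which in all were at 35.8 and 34.4 FPKM. In Casp12 the NMD transcript Casp12-205 was at 0.0226 FPKM with Musclin and 2.34 with vehicle. It held 1 of the gene's 543 fragment equivalents with Musclin and 131 of 745 with vehicle, and the authors' deposited table does not mark it. The main coding transcript Casp12-201 was at 8.07 and 9.44 FPKM, 1.17-fold lower.

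The nuclease that cuts DNA in apoptosis and its inhibitor were at low levels. Dffb, the nuclease, was at 1.54 FPKM with Musclin and 1.90 with vehicle on 52 against 66 fragment equivalents, and its interval (0.542 to 1.16) included 1. Dffa, which is both inhibitor and chaperone of that nuclease, was at 6.96 and 5.65 FPKM, a ratio of 1.24 (1.06 to 1.45).

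Around these 40 genes, a list of 76 further cell death genes held larger differences. This list was chosen with earlier results of these data known, so its counts beside all genes are no test. Of the 74 found in the table, 57 were at the floor, 4 of them 2-fold or more higher with Musclin and none lower, against 1.71% and 1.52% of all genes. Their median log2 ratio was 0.08. The 4 were Zbp1 (32.1 and 3.79 FPKM), an activator of RIPK3, Fas (11.9 and 2.70 FPKM), a death receptor, Bnip3 (62.8 and 19.7 FPKM), a mitophagy receptor of the BCL2 family, and Tnfaip3 (4.81 and 1.14 FPKM), a brake on NF-κB and RIPK1 signalling. At 1.5-fold, 8 of the 57 were higher and 2 lower, against 5.65% and 5.20% of all genes. Birc3, which encodes cIAP2, was at 9.64 and 4.57 FPKM and Bag3, a co-chaperone gene, at 56.2 and 31.3 FPKM. All 4 genes on the list beside the inhibitor of apoptosis members had a log2 ratio above 0, against 46.9% of all genes at the floor. Nlrp3, the inflammasome sensor, was at 1.20 and 0.123 FPKM on 84 against 11 fragment equivalents, and reached the floor with Musclin alone. Cdkn1a, the p21 gene, was at 162 and 102 FPKM. The lower ones were Tab2, an adaptor of the TAK1 kinase (34.1 and 56.3 FPKM), and Vdac3, a mitochondrial channel gene (72.8 and 110 FPKM).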

How the data were processed

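RNA-seq of 1 Musclin library and 1 vehicle library was deposited as FPKM per transcript, per the file headers. The authors' deposited table also gives a fold change, its log2, a p-value and a q-value per transcript, computed by an unstated test. Tools the authors used were StringTie, DESeq2 and edgeR, per the submitters' processing notes, which give neither role nor version. Aligner and build are not stated, but of 88029 transcripts found in GENCODE M21 (GRCm38), 87772 had the same start and end.

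FPKM were summed per gene identifier. Log2 ratios used a pseudocount of 1 FPKM, which understates differences of low genes, and genes at 1 FPKM or more in a library were kept. Steps of FPKM times length in single-exon genes gave the aligned bases, whole within 0.1 base in 78.1% and 77.6% of such genes. The arithmetic was tested on simulated data. All 40 genes could be named, in full the 8 farthest from 0, and up to 3 of each further list. Some genes that annotated lists take are not reported here. Members and lists were chosen with earlier results of these data known. Python 3.11.15, pandas 2.3.3 and scipy 1.17.1 were used.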

Additional observations from a re-analysis of the deposited data

How the results depend on the processing

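No paired analysis was possible because each group is 1 library without a replicate number. No member was 2-fold higher or lower under other pseudocounts, scalings, floors or aligned bases. With protein-coding transcripts alone 1 was 2-fold lower, Diablo, 1 was 1.5-fold lower and 0 were 1.5-fold higher. With the leading transcript of each gene alone, 2 were 2-fold higher and 1 lower, and at 1.5-fold 3 were higher and 2 lower. At 1.5-fold, a pseudocount of 0.1 gave 2 lower members, a pseudocount of 5 gave 0 higher, and scaling to the same sum of FPKM gave 1 lower. A limit of 1.25-fold, added after the values were seen, gave 8 higher and 3 lower. The pro minus anti difference of medians reversed to 0.0058 in the BCL2 family alone, where the anti-apoptotic median moved to -0.028. It reversed to 0.032 with the leading coding region of each gene, an alternative also added later. For Bak1 that region was the one of an NMD transcript, and for Bax an incomplete one. The causes were not tested, beyond that the transcript, coding and BCL2 family settings use fewer transcripts or genes. Of 18 named members 14 kept their sign under all 8 alternatives run on single genes. Those that did not were Apaf1 (-0.01) and Xiap (-0.90) with the leading transcript, Diablo (0.05) with the leading coding region, and Ripk1 (-0.15) with aligned bases. Depth limits Bbc3, Dffb and Endog, each on at most 91 fragment equivalents in a library.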

Other observations

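The deposited table annotates genes to KEGG pathways, which gives lists not chosen by symbol. Leaving out the 40 genes of the report, 84 genes annotated to apoptosis were at the floor, 3 of them 2-fold or more higher with Musclin and 3 lower, with a median log2 ratio of 0.02. Over all genes at the floor, 1.71% were 2-fold or more higher and 1.52% lower. The lower ones, named like the following genes after their values were seen, were stress response genes. Gadd45a was at 9.77 FPKM with Musclin and 64.7 with vehicle, Ddit3, the CHOP gene, at 26.2 and 126 FPKM, and the transcription factor gene Atf4 at 69.0 and 152 FPKM. Among the higher ones were Nfkbia, an NF-κB inhibitor gene (31.7 and 8.23 FPKM), and Fas.

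Of 91 further genes annotated to necroptosis, 8 were higher by 2-fold or more and 2 were lower, against 1.71% and 1.52% of all genes. Their median log2 ratio was 0.03. Among the higher ones, besides Zbp1, Tnfaip3 and Fas, were the interferon signalling genes Stat2 (25.3 and 9.50 FPKM) and Eif2ak2, the PKR gene (32.4 and 14.0 FPKM). The rest of the 8 are not named here. Not all of them are interferon genes, and a gene among them reached the floor with Musclin alone. Sqstm1, an autophagy receptor gene, was lower at 238 and 615 FPKM.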
